A study of Homo sapiens with 9 samples.

Results

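The genes of cholesterol and fatty acid synthesis were followed in a metastatic melanoma cell line that carried wild-type WWOX, a WWOX mutant or an empty vector. The group was given as a list of 35 genes: the enzymes that make isoprenoids and sterols, the enzymes that make, desaturate and lengthen fatty acids, and the regulators of both pathways. Probe sets annotated to exactly 1 gene read 32 of the 35, among 19775 genes read in all, and each gene was taken at its brightest such probe set, judged by the mean over the 9 arrays. CYP51A1 and FADS1 were carried only by probe sets annotated to a second gene as well, and FDFT1 was not analysed here.

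The cells were MDA-MB435S, which were grown in DMEM with serum and turned into stable G418-selected clones with a lentiviral vector. WWOX cells expressed the wild-type WWOX tumor suppressor, WFPA cells a form whose first WW domain, a module that binds partner proteins, was disrupted, and EV cells the vector alone. For each group 3 Affymetrix U133 Plus 2.0 arrays were read, 9 in all, which gave a log2 intensity for each probe set. The vector field of the labels conflicts with the sample titles: it names wild-type WWOX for the EV arrays, whose titles carry "wox+", and none for the WWOX arrays. The titles were used. At the brightest WWOX probe set the mean log2 intensity was 10.66 ± 0.276 in WWOX cells, 10.24 ± 0.118 in WFPA cells and 8.94 ± 0.284 in EV cells (SD, n = 3 each). WWOX and WFPA cells passed against EV cells there (1.72 and 1.30, limma adjusted p = 0.000295 and 0.00285), and the difference of 0.42 between WWOX and WFPA cells did not pass (limma adjusted p = 0.141). The other 4 WWOX probe sets did not all keep this order. In WWOX, WFPA and EV cells, 1 was at 8.18, 7.64 and 4.49 and 1 at 8.87, 8.38 and 9.11. The dimmest was at 5.13, 5.5 and 3.91, and the last at 6.11, 5.98 and 5.98. The groups may each be 1 clone, and nothing states that the arrays of a group came from separate cultures, so the p-values measure only the spread between these arrays, which may be technical.

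Cholesterol is built from acetyl-CoA through mevalonate, the isoprenoid pyrophosphates, squalene and a chain of sterols, and fatty acids are built from the same acetyl-CoA through malonyl-CoA. SREBP transcription factors, encoded by SREBF1 and SREBF2, switch on most genes of both pathways. SCAP escorts them to the Golgi for cleavage when sterols are low, and the INSIG proteins hold SCAP back in the endoplasmic reticulum when sterols are high. Tumor cells often make their own lipids.

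The array medians lay within 0.02 log2 units of each other. The spread between arrays of 1 group was widest in WWOX cells, with a root mean square SD over probe sets of 0.285, against 0.186 in WFPA cells and 0.206 in EV cells. WWOX replicate 3 stood apart: over all probe sets it correlated with the other WWOX arrays at r = 0.9875 and 0.9895, where these correlated with each other at 0.9929, and each WFPA or EV array correlated less with it than with any other array. It carried the highest WWOX reading of FASN, SREBF1, SCAP, MVD, NSDHL and LSS, among others. Some results of the lipid synthesis genes are given without it as well. The other lipid genes compared further below were not read without it. Of the melanocyte markers, GPR143 was at 11.46, 11.45 and 11.32 and MITF at 13.43, 11.40 and 11.87 in WWOX, WFPA and EV cells, whereas PMEL, MLANA, TYR and TYRP1 were at or below 5.91 in every group. SOX10 was at 10.55 in WWOX cells, 5.33 in WFPA cells and 4.89 in EV cells, and S100B at 12.23, 6.31 and 5.55. The mean of the 8 melanocyte markers lay at 8.15 to 8.29 on the WWOX arrays. It lay at 6.53 to 6.61 on the WFPA arrays and 6.42 to 6.48 on the EV arrays. Some markers of other cell types moved, and others of the same lists did not. PTPRC, of blood cells, was at 5.48, 7.67 and 9.88 in WWOX, WFPA and EV cells, and CD3E and CD14 did not pass in any comparison. LUM, of fibroblasts, was at 6.41, 2.07 and 2.03, and COL1A1, COL3A1, DCN and PDGFRA did not pass. Of 5 epithelial markers, KRT18 was at 11.74, 13.14 and 13.39, KRT8 at 8.80, 9.94 and 9.83 and CDH1 at 4.54, 7.78 and 4.67, and KRT19 and EPCAM did not pass. Of 6 adipocyte markers, LPL was at 6.41, 4.70 and 4.43 and FABP4 at 5.57, 5.85 and 6.48, and ADIPOQ, PLIN1, LEP and CIDEC did not pass, with ADIPOQ at 2.78 to 2.85. The mean of the adipocyte list lay at 5.44 to 5.60 on the WWOX arrays, 5.26 to 5.34 on the WFPA arrays and 5.21 to 5.51 on the EV arrays. That of 6 hepatocyte markers lay between 4.95 and 5.12 on every array, with ALB at 4.34 to 4.64. Of these, TTR passed as higher in WWOX than in WFPA cells (0.34, limma adjusted p = 0.0488). ALB, APOA1, APOB, SERPINA1 and FGB did not pass in any comparison. The part of these markers in the changes of the lipid genes was not tested. In bulk RNA, fewer cells of a kind and less RNA per cell cannot be told apart.

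The lipid synthesis genes did not move as 1 block. In WWOX cells set against the mean of EV and WFPA cells, 4 of the 32 genes were higher and 8 lower at an adjusted p under 0.05 in limma, and 20 did not pass. Over all genes the same test called 9.49% higher and 10.9% lower. Among the 16582 genes at or above the lower quartile of mean level it called 10.8% higher and 12.8% lower. No lipid synthesis gene changed at least 2-fold in this comparison, as 4.01% of all genes did. The median log2 change of the 32 genes was -0.01, and that of all genes 0.04. The genes that were higher were LSS, SREBF1, INSIG1 and SCD, and those that were lower were ACAT2, PMVK, IDI1, SC5D, INSIG2, STARD4, ACACA and ELOVL6. A share of 4 in 32 is close to the background for the genes that were higher. The 8 that were lower lie above it, and they were 6 to 8 with single arrays left out. Of the 32 genes, 24 had a mean level at or above the upper quartile of all probe sets. No background was taken from genes of like level, so whether the excess is particular to these genes was not tested. Without WWOX replicate 3, 4 genes were higher and 7 lower. PMVK and SC5D then lost their calls (limma adjusted p = 0.0524 and 0.139), and MVD, which reads 8.12 on that array, passed as lower by 0.32 (limma adjusted p = 0.0321).

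The comparisons with each group alone divided the genes further. Against EV cells, 4 genes were higher and 7 lower in WWOX cells, where 6.96% of all genes were higher and 7.86% lower. Against WFPA cells, 3 were higher and 6 lower, where the background was 9.38% and 11%. WFPA cells themselves had 4 genes higher and none lower than EV cells, where 4.95% of all genes were higher and 3.67% lower, and 10 of the 32 had an unadjusted p under 0.05 in limma, as did 22.8% of all genes. At the brightest probe sets, a change of at least 2-fold was found for 1 gene, STARD4 in WWOX against WFPA cells. Over all genes 4.73% reached it there. None of the 32 reached it against EV cells or between WFPA and EV cells, where 3.9% and 2.23% of all genes did. Dimmer probe sets of HMGCS1 and ELOVL6 were 2.24-fold and 2.12-fold lower in WWOX than in EV cells (limma adjusted p = 0.000369 and 0.000588). In all, 15 genes passed in at least 1 of the 4 comparisons and 17 in none, where 27.8% of all genes passed in at least 1. In each of the 3 comparisons of WWOX cells 7 genes passed, ACAT2, IDI1, INSIG1, INSIG2, STARD4, ACACA and SCD, where 9.41% of all genes did. The 3 comparisons of WWOX cells share their WWOX arrays and are not independent. Some counts rested on single arrays: the 7 genes lower than in EV cells were 3 without EV replicate 2 and 4 without EV replicate 3, the 3 higher than in WFPA cells were 1 without WWOX replicate 2 and 0 without any 1 WFPA array, and the 4 higher in WFPA cells were 2 without WWOX replicate 2 or any 1 WFPA or EV array. Without WWOX replicate 3 the counts of higher and lower genes were 4 and 7 against EV cells, 3 and 6 against WFPA cells, and 5 and 1 for WFPA against EV cells. With Bonferroni adjustment in limma none of the 32 genes passed in any comparison.

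**Figure D1:**
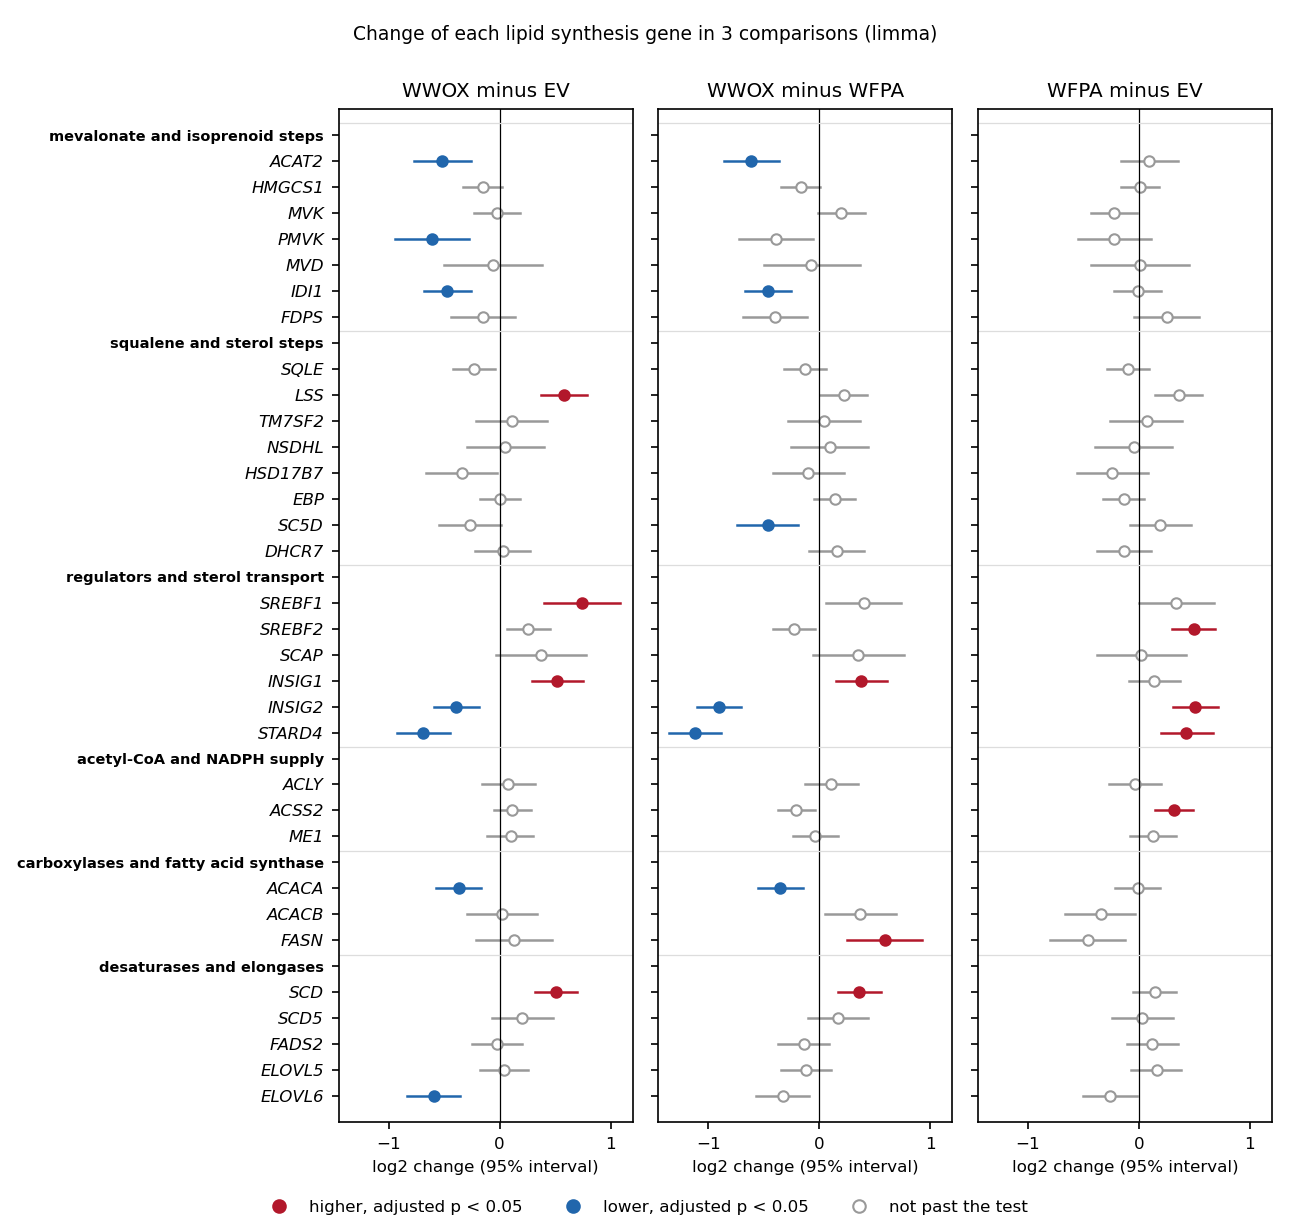
Log2 change of each of the 32 genes (rows, ordered by role) in WWOX minus EV, WWOX minus WFPA and WFPA minus EV cells, with the 95% interval from limma as a bar. Filled points passed at an adjusted p under 0.05, red higher and blue lower. In the WFPA minus EV panel the 4 genes that passed, SREBF2, INSIG2, STARD4 and ACSS2, all lie to the right of 0.

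At the brightest probe sets, the regulators and the sterol carrier held the widest changes. STARD4, which moves sterol between membranes inside the cell, read 8.01, 7.70 and 7.67 on the WWOX arrays, 8.94, 8.93 and 8.86 on the WFPA arrays and 8.47, 8.45 and 8.52 on the EV arrays. All WWOX arrays lay below all others, and all WFPA arrays above all EV arrays. In WWOX cells its log2 level was lower by 1.12 than in WFPA cells, a 2.17-fold difference (standard error of the log2 difference, SE, 0.104, adjusted p = 0.000147 in limma). It was lower by 0.69 than in EV cells (SE 0.104, limma adjusted p = 0.00304), and both calls held when any 1 array was left out. WFPA cells were 0.43 above EV cells (limma adjusted p = 0.0417), a call that was lost without WWOX replicate 2 or without any 1 of the WFPA or EV arrays, at adjusted p-values of up to 0.133.

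INSIG2, a retention protein for SCAP, followed the same order of groups as STARD4. It read 9.99, 10.16 and 10.06 on the WWOX arrays, 10.89, 11.00 and 11.03 on the WFPA arrays and 10.54, 10.45 and 10.40 on the EV arrays, and the 3 groups did not overlap. In WWOX cells it was lower by 0.90 than in WFPA cells (SE 0.0888, limma adjusted p = 0.000203) and was lower by 0.39 than in EV cells (limma adjusted p = 0.0211). WFPA cells were 0.51 above EV cells (limma adjusted p = 0.0103). The fall against EV cells lost its call without EV replicate 1 or EV replicate 2, at adjusted p-values of up to 0.0808, and the other calls of INSIG2 held without any 1 array.

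INSIG1 shares the retention role with INSIG2 and is itself a well-known SREBP target, and it moved the other way. It read 13.10, 13.00 and 12.85 on the WWOX arrays, 12.62, 12.68 and 12.50 on the WFPA arrays and 12.54, 12.34 and 12.51 on the EV arrays. Every WWOX array lay above every other, while the WFPA and EV arrays overlapped. WWOX cells were 0.52 above EV cells (limma adjusted p = 0.0115) and 0.38 above WFPA cells (limma adjusted p = 0.0345). All 3 INSIG1 probe sets passed in both comparisons, with changes against the mean of EV and WFPA cells of 0.45, 0.60 and 0.50. The rise against WFPA cells at the brightest probe set was lost when WWOX replicate 1 or 2, any WFPA array, or EV replicate 1 or 3 was left out, at adjusted p-values of up to 0.122. INSIG2 had 1 probe set, so its fall has no second reading.

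SREBF1, which encodes the SREBP that favors fatty acid genes, passed against EV cells at its brighter probe set. It read 8.23, 8.22 and 8.67 on the WWOX arrays, 7.89, 8.07 and 7.95 on the WFPA arrays and 7.40, 7.79 and 7.70 on the EV arrays, with no overlap between any 2 groups. WWOX cells were 0.74 above EV cells (SE 0.149, limma adjusted p = 0.0126), and the call held without any 1 array. The difference of 0.40 from WFPA cells did not pass (95% interval 0.06 to 0.74, limma adjusted p = 0.105), nor did that of 0.34 between WFPA and EV cells (limma adjusted p = 0.258). Without WWOX replicate 3 WWOX cells were 0.59 above EV cells (limma adjusted p = 0.0219). A second, dimmer SREBF1 probe set did not pass in any comparison, with means of 7.67, 7.41 and 7.39 in WWOX, WFPA and EV cells.

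SREBF2, which encodes the SREBP that favors cholesterol genes, passed between WFPA and EV cells at its brightest probe set. There it read 10.43, 10.40 and 10.32 on the WWOX arrays, 10.72, 10.57 and 10.56 on the WFPA arrays and 10.17, 10.11 and 10.09 on the EV arrays. WFPA cells were 0.50 above EV cells (SE 0.0845, limma adjusted p = 0.00917), and WWOX cells lay between, with differences of 0.26 from EV cells and -0.23 from WFPA cells that did not pass. The other SREBF2 probe sets had other orders, with means of 9.27, 9.19 and 8.94 and of 5.79, 5.72 and 5.98 in WWOX, WFPA and EV cells, and neither passed between WFPA and EV cells. SCAP did not pass in any comparison. It read 8.11, 8.37 and 8.82 on the WWOX arrays, 8.05, 8.09 and 8.10 on the WFPA arrays and 8.02, 8.31 and 7.84 on the EV arrays. The WWOX and EV arrays overlapped, and the WWOX arrays had the widest spread.

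**Figure D2:**
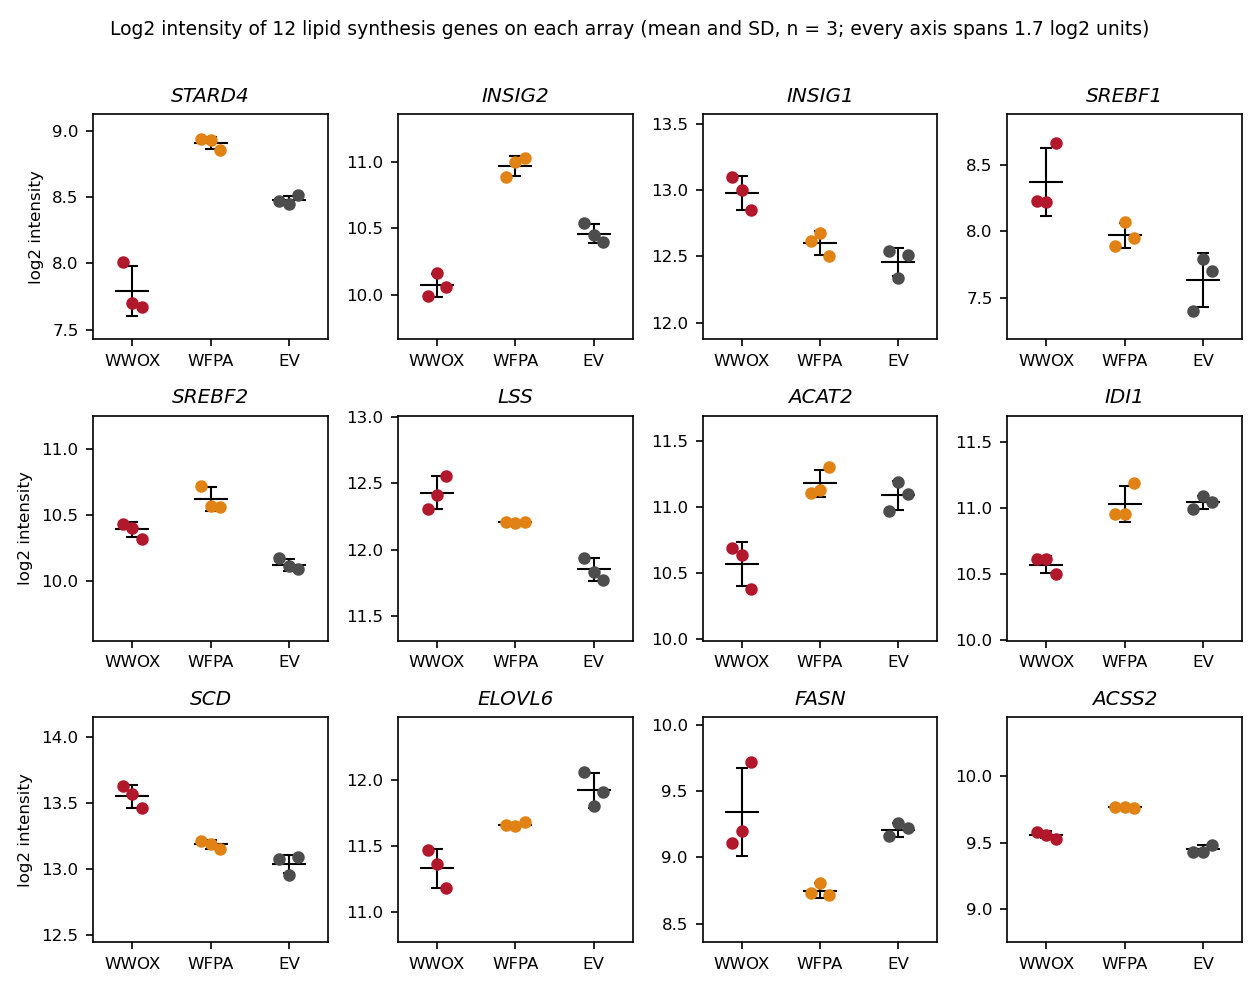
Log2 intensity on each array (points) of 12 of the genes in WWOX, WFPA and EV cells, the black bars showing mean and SD (n = 3). STARD4 and INSIG2 are lowest in WWOX and highest in WFPA cells, at 7.79 and 8.91 for STARD4, whereas INSIG1, SREBF1, LSS and SCD are highest in WWOX cells.

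The plan was to examine the sequence before the start for genes with the widest changes among those that passed. The RefSeq promoter table (GRCh38.p14) held 43 windows for 31 of the 35 genes, with 250 bases before each start, and ACAT2, FDFT1, SQLE and FASN were not in it. Searches on both strands were made for 3 motifs: TCACNCCAC, a sterol regulatory element-like sequence, TCACGTGA, an E-box that SREBPs can also bind, and CCAAT, the box bound by NF-Y, a partner of SREBPs. STARD4, INSIG2 and SREBF1 had the widest changes at the brightest probe sets, and INSIG1 and SREBF2 were chosen after their values were seen. Their windows are given on the strand of the gene, 5′ to 3′, with matches in capitals.
STARD4 (chr5:111512536-111512785, minus strand): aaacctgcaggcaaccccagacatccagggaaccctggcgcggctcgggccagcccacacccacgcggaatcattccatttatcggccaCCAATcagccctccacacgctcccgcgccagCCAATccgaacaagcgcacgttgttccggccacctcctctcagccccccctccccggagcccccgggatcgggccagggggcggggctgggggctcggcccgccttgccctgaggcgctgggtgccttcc
INSIG2 (chr2:118088221-118088470, plus strand): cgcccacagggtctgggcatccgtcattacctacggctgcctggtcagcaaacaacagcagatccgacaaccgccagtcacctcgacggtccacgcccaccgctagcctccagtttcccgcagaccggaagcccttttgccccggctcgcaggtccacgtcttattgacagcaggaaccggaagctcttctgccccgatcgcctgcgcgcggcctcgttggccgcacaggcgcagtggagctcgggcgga
SREBF1 (chr17:17836987-17837236, minus strand): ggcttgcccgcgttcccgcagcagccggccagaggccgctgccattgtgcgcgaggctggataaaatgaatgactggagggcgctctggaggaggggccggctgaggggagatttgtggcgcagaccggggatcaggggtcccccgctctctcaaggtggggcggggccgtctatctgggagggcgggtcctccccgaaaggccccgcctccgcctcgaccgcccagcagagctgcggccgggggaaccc
INSIG1 (chr7:155297628-155297877, plus strand): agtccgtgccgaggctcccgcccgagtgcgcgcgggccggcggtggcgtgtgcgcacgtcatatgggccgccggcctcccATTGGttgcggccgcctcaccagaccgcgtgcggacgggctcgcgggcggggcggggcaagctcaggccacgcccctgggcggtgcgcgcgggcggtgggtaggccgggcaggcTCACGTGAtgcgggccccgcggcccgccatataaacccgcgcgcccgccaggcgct
SREBF2 (chr22:41832855-41833104, plus strand): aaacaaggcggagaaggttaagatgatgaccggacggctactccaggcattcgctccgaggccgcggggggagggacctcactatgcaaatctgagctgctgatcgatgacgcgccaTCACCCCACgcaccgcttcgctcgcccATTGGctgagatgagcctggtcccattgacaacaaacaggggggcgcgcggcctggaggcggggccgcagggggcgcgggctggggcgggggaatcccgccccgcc

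STARD4, lower in WWOX cells, held CCAAT at 161 to 157 and at 130 to 126 bases before the start and neither of the other motifs. INSIG1, higher in WWOX cells, held TCACGTGA at 56 to 49 bases before the start and CCAAT on the opposite strand at 170 to 166. SREBF2 held TCACCCCAC ending 125 bases before the start and CCAAT on the opposite strand at 106 to 102. No window of INSIG2 (2 were listed) or SREBF1 (1 listed) held any of the 3 motifs, which says only that these letters are not in these windows. No 2 of the matches overlapped. CCAAT stood in 26 of the 43 windows of the lipid synthesis genes (60.5%), against 32% of all 35116 windows in the table. TCACNCCAC stood in 1 of the 43, that of SREBF2, and in 0.883% of all, and TCACGTGA in 1, that of INSIG1, and in 0.854% of all. The genes with CCAAT included some that were lower in WWOX cells (IDI1, SC5D, STARD4 and ACACA) and some that were higher (LSS, INSIG1 and SCD).

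In the mevalonate and isoprenoid steps, 3 of 7 genes were lower in WWOX cells than in the mean of EV and WFPA cells. None was higher, and the median log2 change was -0.28. Over all genes 10.9% were lower and 9.49% higher in that comparison. ACAT2, the cytosolic thiolase that joins acetyl-CoA units at the head of the pathway, read 10.69, 10.64 and 10.38 on the WWOX arrays, 11.11, 11.13 and 11.30 on the WFPA arrays and 10.97, 11.19 and 11.10 on the EV arrays. All WWOX arrays lay below all others, and the WFPA and EV arrays overlapped. In WWOX cells it was lower by 0.61 than in WFPA cells (SE 0.112, limma adjusted p = 0.00627) and was lower by 0.52 than in EV cells (SE 0.112, limma adjusted p = 0.0177). The call against EV cells was lost without EV replicate 2 or EV replicate 3, at adjusted p-values of up to 0.0659.

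IDI1 and PMVK were the other genes of these steps to fall. IDI1, the isomerase that makes the reactive isoprenoid dimethylallyl pyrophosphate, read 10.61, 10.61 and 10.50 on the WWOX arrays, 10.95, 10.95 and 11.19 on the WFPA arrays and 10.99, 11.09 and 11.04 on the EV arrays. Its WWOX arrays lay below all others, and it was lower by 0.46 than in WFPA cells (limma adjusted p = 0.0108) and was lower by 0.47 than in EV cells (limma adjusted p = 0.0123), and both calls held without any 1 array. This probe set and the next brightest, which fell by 0.39 against the mean of both groups, carry the _x_at ending that Affymetrix gives where probes can bind other transcripts. The remaining 2 IDI1 probe sets, of which 1 has that ending too, did not pass, at 0.21 and -0.15. PMVK, the kinase that adds the second phosphate to mevalonate, read 10.50, 10.47 and 9.99 on the WWOX arrays, 10.64, 10.74 and 10.74 on the WFPA arrays and 10.81, 10.88 and 11.10 on the EV arrays. Against EV cells it fell by 0.61 (limma adjusted p = 0.0266), a call that was lost without EV replicate 2 or EV replicate 3, at adjusted p-values of up to 0.0961, and the difference from WFPA cells did not pass (-0.39, limma adjusted p = 0.108). Against the mean of both groups PMVK differed by -0.5 (limma adjusted p = 0.0271). That call was lost without WWOX replicate 3, WFPA replicate 2 or 3, or EV replicate 3. MVK, MVD and FDPS, which phosphorylate mevalonate, decarboxylate its product and join isoprenoids into farnesyl pyrophosphate, did not pass in any comparison.

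HMGCS1, which makes the HMG-CoA from which mevalonate is formed, depended on the probe set. The brighter one read 11.17, 11.28 and 11.19 on the WWOX arrays, 11.36, 11.38 and 11.39 on the WFPA arrays and 11.38, 11.41 and 11.32 on the EV arrays, and its difference of -0.16 from the mean of EV and WFPA cells did not pass (limma adjusted p = 0.142). The dimmer one read 7.93, 7.85 and 7.83 on the WWOX arrays, 8.61, 8.75 and 8.48 on the WFPA arrays and 8.89, 9.27 and 8.94 on the EV arrays. At that probe set the level in WWOX cells was lower by 1.16 than in EV cells (SE 0.122, limma adjusted p = 0.000369) and was lower by 0.74 than in WFPA cells (limma adjusted p = 0.00356). The WWOX arrays lay below all others at both probe sets.

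In the squalene and sterol steps, 1 of 8 genes was higher in WWOX cells than in the mean of EV and WFPA cells. Another 1 was lower, where 9.49% of all genes were higher and 10.9% lower. LSS, which closes the sterol rings to lanosterol, read 12.31, 12.41 and 12.56 on the WWOX arrays, 12.21, 12.20 and 12.21 on the WFPA arrays and 11.94, 11.83 and 11.77 on the EV arrays, so that the groups did not overlap. WWOX cells were 0.58 above EV cells (SE 0.0931, limma adjusted p = 0.00416). The differences of WWOX from WFPA cells (0.22, adjusted p = 0.147) and of WFPA from EV cells (0.36, adjusted p = 0.055) did not pass in limma. The other LSS probe sets did not pass against EV cells, at 0.53 and 0.18.

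SC5D, a late desaturase that forms the 5,6 double bond of cholesterol precursors, read 10.70, 10.45 and 10.29 on the WWOX arrays, 10.89, 11.10 and 10.85 on the WFPA arrays and 10.72, 10.85 and 10.68 on the EV arrays. In WWOX cells it was lower by 0.46 than in WFPA cells (limma adjusted p = 0.0327), while their arrays overlapped with those of EV cells. The call was lost without WWOX replicate 2 or 3, any WFPA array or EV replicate 1, at adjusted p-values of up to 0.116. Against the mean of both groups (-0.37, limma adjusted p = 0.0462) only leaving out WWOX replicate 1 kept the call, with adjusted p-values of up to 0.139 without any of the others.

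The remaining sterol genes did not pass at the probe set used, and 2 of them passed at another. SQLE, the epoxidase that commits squalene to sterols, differed by -0.18 at its brightest probe set in WWOX cells against EV and WFPA averaged (limma adjusted p = 0.13) and by -0.47 at the next (limma adjusted p = 0.0448), and all 4 of its probe sets had negative changes. NSDHL, which removes a methyl group on the way to cholesterol, differed by 0.08 at its brighter probe set, where WWOX arrays read 10.35, 10.56 and 11.01 and where it differed by -0.11 without WWOX replicate 3, and by -0.52 at its dimmer one (limma adjusted p = 0.00793), where they read 8.93, 8.95 and 8.66. At the dimmer one the WFPA arrays read 9.27, 9.26 and 9.43 and the EV arrays 9.45, 9.53 and 9.26, all above the WWOX arrays. TM7SF2, HSD17B7, EBP and DHCR7, which act on sterols after lanosterol, did not pass in any comparison at the probe set used.

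**Figure D3:**
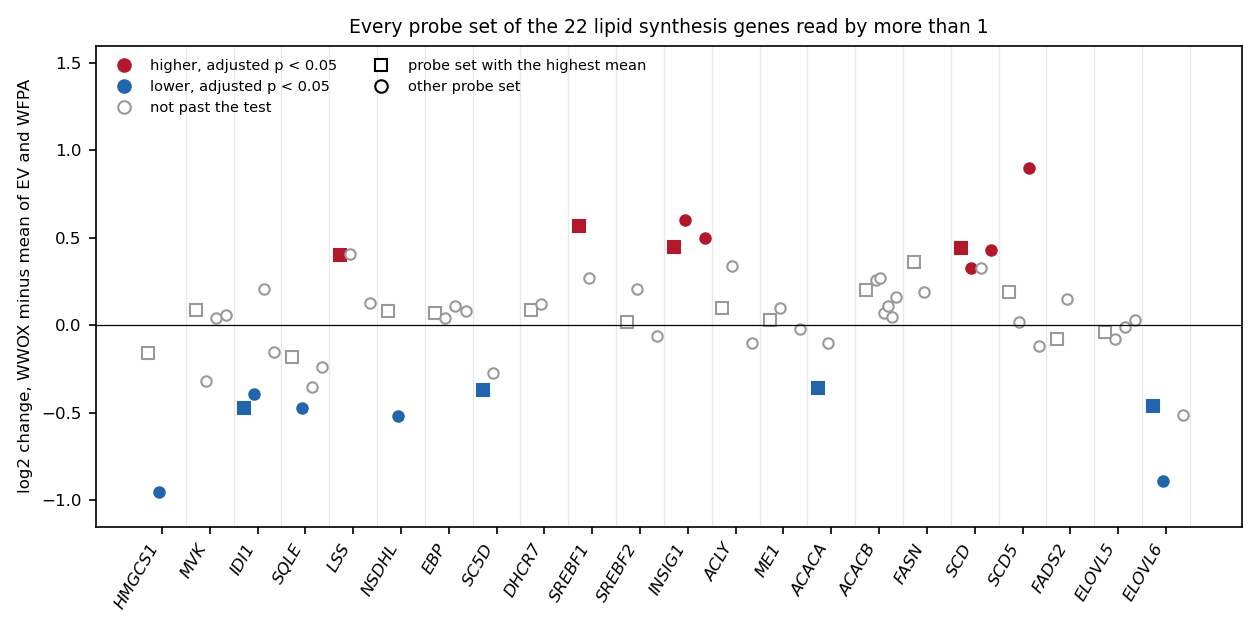
Log2 change of WWOX cells (against EV and WFPA averaged) at every probe set of the 22 genes read by more than 1 probe set (x axis), with the brightest as a square. Filled symbols passed at an adjusted p under 0.05. HMGCS1 lies at -0.16 for the brightest and -0.95 for the other probe set, and NSDHL at 0.08 and -0.52.

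Over all 79 probe sets of the 32 genes, no gene passed in opposite directions at 2 probe sets in WWOX cells against the mean of EV and WFPA cells. Of the 12 genes that passed in that comparison, ACAT2, PMVK, INSIG2 and STARD4 had only 1 probe set. IDI1, INSIG1, SCD and ELOVL6 passed the same way at a further one, and LSS, SC5D, SREBF1 and ACACA did not. HMGCS1, SQLE, NSDHL and SCD5 passed only at a probe set that was not the brightest.

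Of the 3 genes that supply acetyl-CoA and NADPH, none passed in a comparison of WWOX cells. In WFPA against EV cells 1 was higher, as were 4.95% of all genes. ACSS2, which makes acetyl-CoA from acetate, read 9.58, 9.56 and 9.53 on the WWOX arrays, 9.77, 9.77 and 9.76 on the WFPA arrays and 9.43, 9.43 and 9.48 on the EV arrays. The 3 groups did not overlap, and WFPA cells were 0.32 above EV cells (SE 0.0736, limma adjusted p = 0.0351). That call was lost without WWOX replicate 2 or without any 1 of the WFPA or EV arrays, at adjusted p-values of up to 0.116. ACLY, which makes cytosolic acetyl-CoA from citrate, did not pass, with 95% intervals of -0.16 to 0.32 for WWOX minus EV cells and -0.13 to 0.35 for WWOX minus WFPA cells. ME1, a source of NADPH, had means of 4.25, 4.29 and 4.15 in WWOX, WFPA and EV cells, under or near the lower quartile of the arrays (4.23 to 4.34), where a change may be hidden.

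The carboxylases and the fatty acid synthase parted. ACACA, the cytosolic acetyl-CoA carboxylase that makes malonyl-CoA for synthesis, read 9.13, 9.10 and 9.26 on the WWOX arrays, 9.55, 9.45 and 9.55 on the WFPA arrays and 9.45, 9.61 and 9.54 on the EV arrays. All WWOX arrays lay below all others, and the level was lower by 0.35 than in WFPA cells (limma adjusted p = 0.026) and was lower by 0.37 than in EV cells (limma adjusted p = 0.0277). The call against EV cells was lost without WWOX replicate 1 or 2 or EV replicate 2 or 3, and that against WFPA cells without WWOX replicate 1 or 2 or any WFPA array, at adjusted p-values of up to 0.0917 and 0.0899. Against the mean of both groups (-0.36, limma adjusted p = 0.0126) it was lost without WWOX replicate 2, at an adjusted p of 0.0547. The other ACACA probe set read -0.10 in that comparison and did not pass.

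FASN, the synthase that builds palmitate, read 9.11, 9.20 and 9.72 on the WWOX arrays, 8.73, 8.81 and 8.72 on the WFPA arrays and 9.16, 9.26 and 9.22 on the EV arrays. The WFPA arrays lay below all others, and the WWOX and EV arrays overlapped. WWOX cells were 0.59 above WFPA cells (SE 0.149, limma adjusted p = 0.0269), a call lost without any 1 WFPA array at adjusted p-values of up to 0.0859. WFPA cells differed from EV cells by -0.46, which did not pass (limma adjusted p = 0.118). Without WWOX replicate 3 WWOX cells were 0.40 above WFPA cells (limma adjusted p = 0.0151), and the difference of -0.46 between WFPA and EV cells passed (limma adjusted p = 0.00818). ACACB, the carboxylase of the mitochondrial surface, had a similar placing, with means of 9.60, 9.24 and 9.58 in WWOX, WFPA and EV cells. It did not pass at its brightest probe set, and 2 of its 6 other probe sets passed in WWOX against WFPA cells, at 0.43 and 0.40.

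Among the desaturases and elongases, SCD and ELOVL6 passed in opposite directions. SCD, which makes oleate from stearate, read 13.63, 13.57 and 13.46 on the WWOX arrays, 13.21, 13.19 and 13.15 on the WFPA arrays and 13.08, 12.96 and 13.09 on the EV arrays, with no overlap between groups. WWOX cells were 0.51 above EV cells (SE 0.0847, limma adjusted p = 0.00485) and 0.36 above WFPA cells (SE 0.0847, limma adjusted p = 0.0188). The call against WFPA cells was lost without WWOX replicate 2 or any WFPA array, at adjusted p-values of up to 0.0716. All 4 SCD probe sets had positive changes against the mean of both groups, and 3 of them passed.

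ELOVL6, which lengthens palmitate to stearate and so feeds SCD, read 11.47, 11.36 and 11.18 on the WWOX arrays, 11.66, 11.65 and 11.68 on the WFPA arrays and 12.06, 11.80 and 11.91 on the EV arrays. The groups did not overlap and stood in the order opposite to that of SCD. In WWOX cells it was lower by 0.59 than in EV cells (SE 0.105, limma adjusted p = 0.00662), and the difference from WFPA cells did not pass (-0.33, limma adjusted p = 0.0622). A second probe set fell by 1.08 against EV cells (limma adjusted p = 0.000588) and fell by 0.70 against WFPA cells (limma adjusted p = 0.00512). Another fell by 0.71 against WFPA cells (limma adjusted p = 0.0259) and did not pass against EV cells (-0.30).

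SCD5, the second stearoyl-CoA desaturase of humans, did not pass at its brightest probe set, with a change of 0.19 against the mean of EV and WFPA cells. A dim SCD5 probe set rose by 0.90 (limma adjusted p = 0.0124), with readings of 4.57, 4.78 and 5.47 on the WWOX arrays, 4.0, 4.12 and 3.83 on the WFPA arrays and 3.94, 4.01 and 4.36 on the EV arrays, near the lower quartile. FADS2, a front-end desaturase of polyunsaturated fatty acids, and ELOVL5, which lengthens them, did not pass in any comparison.

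Other lipid genes, 62 read of 67 listed, were taken for comparison: 15 were higher and 10 lower in WWOX cells than in the mean of EV and WFPA cells, with a median log2 change of 0.04. The background in that comparison was 9.49% higher and 10.9% lower. Of the 9 genes listed as isoprenoid branch and accessory enzymes, 4 were lower and 1 was higher. Those that fell included ERG28, a scaffold for sterol demethylation, at -0.37, and DHDDS, of dolichol synthesis, at -0.33 (limma adjusted p = 0.0249 and 0.0177). DHDDS did not pass against EV cells (-0.2), nor did ERG28 against WFPA cells (-0.24). Of the machinery around SREBP, MBTPS2, a protease that releases SREBP from the membrane, fell by 0.53 (limma adjusted p = 0.00911). RNF139, a ubiquitin ligase of the endoplasmic reticulum, fell by 0.38 (limma adjusted p = 0.00606), and UBE2G2, a ubiquitin-conjugating enzyme, rose by 0.48 (limma adjusted p = 0.00152). MBTPS2 and RNF139 passed against WFPA cells but not against EV cells (-0.41 and -0.24, limma adjusted p = 0.0642 and 0.0849).

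The changes of at least 2-fold among these other genes lay in sterol export and fatty acid handling. ABCG1, a sterol exporter, stood in the order of STARD4 and INSIG2, at 7.45 ± 0.328 in WWOX cells, 9.73 ± 0.206 in WFPA cells and 8.50 ± 0.0804 in EV cells (SD, n = 3 each). In WWOX cells it was lower by 2.28 than in WFPA cells and was lower by 1.05 than in EV cells (limma adjusted p = 3.49e-05 and 0.00407). The list of 12 sterol transport, storage and related genes includes ABCG1. In it 3 genes were higher and 2, ABCG1 and NPC2, lower than in the mean of EV and WFPA cells. Over all genes these shares were 9.49% and 10.9%. LPCAT3, ABCA1 and MYLIP were higher by 0.61, 0.31 and 0.25 (limma adjusted p = 0.00256, 0.0442 and 0.0373). ABCA1 did not pass against EV cells (0.19), nor did MYLIP against WFPA cells (0.21). ACSL5, which activates fatty acids with coenzyme A, was at 9.92 ± 0.165 in WWOX cells, 11.36 ± 0.0956 in WFPA cells and 11.18 ± 0.0401 in EV cells, a difference of -1.35 from the mean of both (limma adjusted p = 1.66e-05). The elongases ELOVL7 and ELOVL3 differed between WFPA and EV cells, by 2.24 and -1.12 (limma adjusted p = 0.0034 and 0.00192), with ELOVL7 at 4.89 ± 0.675 in EV cells (SD, n = 3), near the lower quartile. ELOVL7 was also 2.12 above EV cells in WWOX cells (limma adjusted p = 0.00253). For some other enzymes of the elongation cycle the result depended on the comparison. Against EV and WFPA averaged, the dehydratases HACD2 and HACD3 were higher by 0.76 and 0.45 (limma adjusted p = 0.00045 and 0.0405), and the reductase TECR by 0.56 (limma adjusted p = 0.00561). HACD3 did not pass against EV cells (0.07), and HACD4 did not pass in any comparison. HSD17B12, the ketoacyl reductase, did not pass against the mean (-0.17, limma adjusted p = 0.144) or against EV cells (0.05). In WWOX cells it was lower by 0.39 than in WFPA cells (limma adjusted p = 0.0128), which were themselves 0.44 above EV cells (limma adjusted p = 0.0147).

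**Figure D4:**
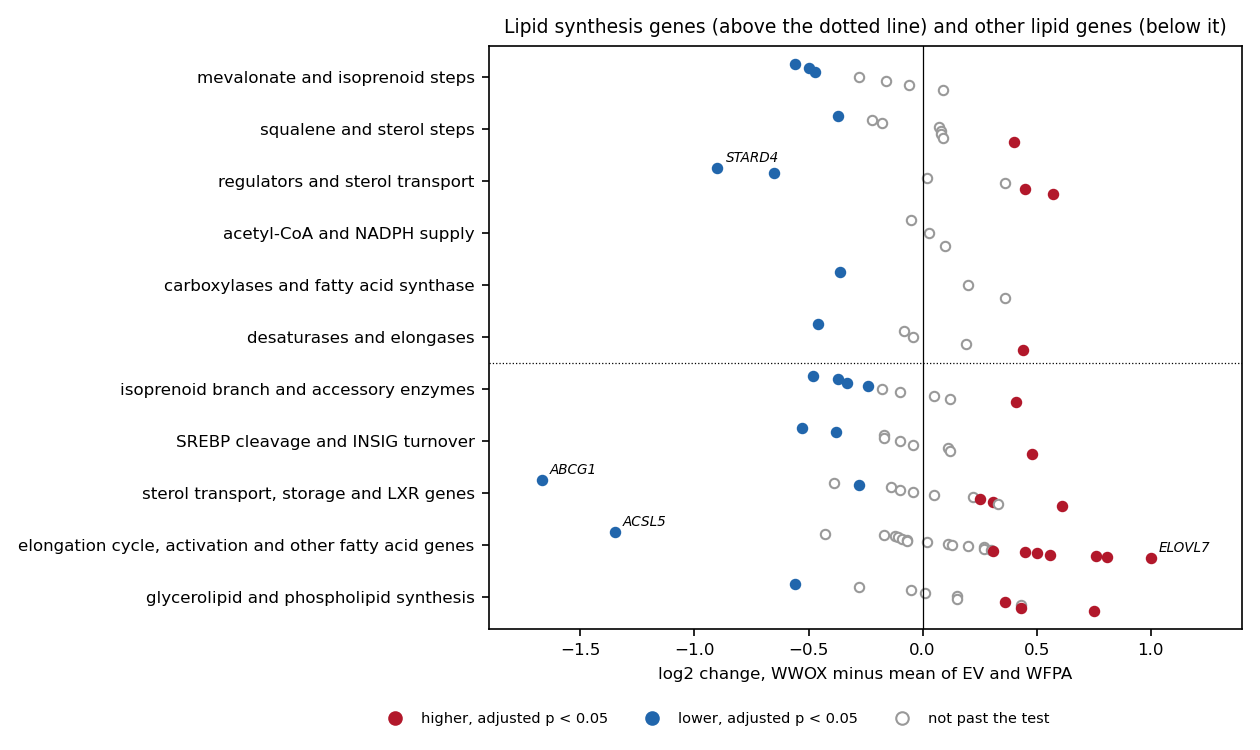
Log2 change of WWOX cells against the mean of EV and WFPA cells (x axis) for the 32 lipid synthesis genes by role (upper rows) and 62 other lipid genes (lower rows), 1 point per gene. Filled points passed at an adjusted p under 0.05. In the upper rows STARD4 lies farthest out at -0.90, and in the lower rows ABCG1 and ACSL5 at -1.67 and -1.35.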

How the data were processed

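Total RNA of MDA-MB435S cells was hybridized to 9 Affymetrix U133 Plus 2.0 arrays, 3 each of WWOX, WFPA and EV cells. Per the methods, the scans went through Partek Genomics Suite, and what the authors deposited is a log2 intensity per probe set and array. The background correction and normalization are not given in the sources used here, and none was added. The file holds 54675 probe sets, of which 62 are array controls. The other 54613 were tested in limma 3.58.1 (R 4.3.3) with a mean for each group over all 9 arrays, 6 residual and 3.04 prior degrees of freedom, and Benjamini-Hochberg adjustment over all 54613. A gene passed at an adjusted p under 0.05. All tests are two-sided and SE is that of limma.

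Of the probe sets, 41091 carry 1 gene, 1801 several and 11721 none. The 1-gene probe set with the highest mean stood for each of 19775 genes, and percentages over all genes use these. The genes and the lists of other lipid genes and markers were chosen with earlier results of these data known. Values on every array were to be printed for genes that passed at 2-fold and for the widest change in each role, and other lipid genes were to be named at 2-fold, at most 8. All further genes given with values were added after their values were seen. In the labels the vector field conflicts with the titles, and the titles were used. The fit was checked on simulated data. Precision is limited by the number of arrays. Alternatives tried were median centring, quantile normalization, limma-trend, Bonferroni adjustment, a filter on dim probe sets, other choices of probe set, only the arrays compared, the replicate number as a block, fold limits of 2 and 4 (that of the methods) and each array left out. Figures were drawn with Python 3.11.15 and matplotlib 3.10.9.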

Additional observations from a re-analysis of the deposited data

How the results depend on the processing

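In WWOX cells against EV and WFPA averaged, the counts of higher and lower genes stayed within 1.5 times of 4 and 8 under every alternative but Bonferroni adjustment and the fold limits. Bonferroni adjustment left 0 genes in every comparison and direction, as did a limit of 4-fold. At the brightest probe sets, a limit of 2-fold left 0 but for the 1 gene (STARD4) lower in WWOX than in WFPA cells.

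With only the arrays compared, 3 genes were lower in WWOX than in EV cells (7 in the fit of all arrays), 1 was higher than in WFPA cells (3), and in WFPA against EV cells 1 (FASN) was lower (0). With the mean of all probe sets of a gene, 5 were higher in WWOX than in WFPA cells.

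The replicate numbers did not pair the arrays: deviations of same-numbered arrays correlated at -0.052 to 0.035, and those of different numbers at -0.089 to 0.085. With the replicate block, 4 genes were lower in WWOX than in EV cells and 2 higher in WFPA than in EV cells (7 and 4 without it).

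With each array left out in turn, the counts of higher and lower genes were 4 to 6 and 6 to 8 for WWOX cells against EV and WFPA averaged, 4 to 4 and 3 to 7 against EV cells, 0 to 3 and 4 to 7 against WFPA cells, and 2 to 5 and 0 to 1 for WFPA against EV cells. The 3 genes higher than in WFPA cells were 0 without any 1 WFPA array and 1 without WWOX replicate 2. The 7 genes lower than in EV cells were 3 without EV replicate 2 and 4 without EV replicate 3. The 4 genes higher in WFPA than in EV cells were 2 without WWOX replicate 2 or any 1 WFPA or EV array.

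Among changes that passed in either setting, the direction turned only with the most variable probe set of a gene. IDI1 then read 0.21 against the mean of EV and WFPA cells and 0.56 against WFPA cells, NSDHL -0.52, -0.56 and -0.47 against the mean, EV and WFPA cells, and SREBF2 -0.27 in WFPA against EV cells. IDI1 and SREBF2 did not pass there, and NSDHL did. The medians of the 32 genes stayed between -0.11 and 0.07. The sources give no background level, so changes near the lower quartile are uncertain, and the cause of these shifts was not tested.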
